A study of Mus musculus with 2 samples.

Results

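Type 1 conventional dendritic cells, labelled "cDC 1" in the deposited annotation, were examined in sorted leukocytes of tumours grown from YUMM1.7, a melanoma cell line of the mouse. The members are the 235 cells that carry this label among 10050 annotated cells: 91 of 5385 in the library of human APOE4 knock-in mice and 144 of 4665 in that of human APOE2 knock-in mice. In both, 100000 melanoma cells had been injected under the flank skin with Matrigel, and tumours were taken on day 19. Each genotype gave 1 library, a pool of 6 mice with 10000 sorted CD45+ DAPI− cells from each, so mice cannot be told apart and no control group other than the second genotype was analysed here. The age and sex of the mice are not given in the labels. The count tables list mouse genes, so the human APOE allele itself was not checked; the mouse gene Apoe had 18 UMIs (counted RNA molecules) in APOE4 and 27 UMIs in APOE2 cDC 1 cells.

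Conventional dendritic cells take up antigen and present it to T cells. Those of type 1 depend on the transcription factors Irf8 and Batf3, take up material of dead cells, and are known for showing its peptides on MHC class I to CD8+ T cells, a route called cross-presentation. In tumours they are also known as a source of chemokines that draw T cells. APOE carries lipids between cells, and its human variants differ in how well they bind receptors.

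The cDC 1 cells held 1163544 UMIs in APOE4 and 1949817 UMIs in APOE2. Their median depth was 12260 UMIs per cell in APOE4 and 13089.5 UMIs in APOE2, deeper than all annotated cells, whose medians were 5560 and 7160 UMIs. At a common 3000 UMIs per cell, which left out 0 APOE4 and 3 APOE2 cells, the median cell showed 1321 genes in APOE4 and 1283 genes in APOE2. The median share of mitochondrial UMIs was 3.63% in APOE4 and 4.13% in APOE2. The libraries share 9 cell barcodes, and none of them belongs to a cDC 1 cell.

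The label was checked by its markers against the cells labelled cDC 2, migratory DCs and pDCs (plasmacytoid dendritic cells). Levels are given in CPM, UMIs per 1000000 UMIs of a label in a library. Xcr1, the receptor for a chemokine of NK and CD8+ T cells, was at 297 CPM in APOE4 and 235 CPM in APOE2, and its highest level in another of these labels was 15.7 CPM, in APOE2 migratory DCs. Clec9a, a receptor for the exposed skeleton of dead cells, was at 138 CPM in APOE4 and 151 CPM in APOE2, and pDCs held 77.7 and 51.6 CPM of it. The transcription factors did not single out the label. Irf8 stood at 1691 CPM in APOE4 and 1542 CPM in APOE2 cDC 1 cells, but pDCs had 3288 and 2665 CPM. Batf3 was at 213 CPM in APOE4 and 182 CPM in APOE2, and migratory DCs had 229 and 253 CPM.

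Of the 15 genes that led the label over the next highest dendritic label in both libraries, 14 are named here, namely Xcr1, Rab7b, Tlr3, Naaa, Ppt1, Sept3, Gatm, Wdfy4, Cadm1, Gcsam, Itgae, Cd24a, Sdad1 and Camk1d. The label may rest on the same counts, so these are its description and no test. Wdfy4, needed for cross-presentation, was at 891 CPM in APOE4 and 845 CPM in APOE2. Tlr3, a sensor of double-stranded RNA, was at 119 CPM in APOE4 and 109 CPM in APOE2. Naaa, a lipid amidase of the lysosome, reached 1551 CPM in APOE4 and 1587 CPM in APOE2. Of the 12 further cDC 1 markers none was at 0 in either library, and their summed level was 5523 CPM in APOE4 and 5588 CPM in APOE2, the highest of all 26 labels in both.

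**Figure D1:**
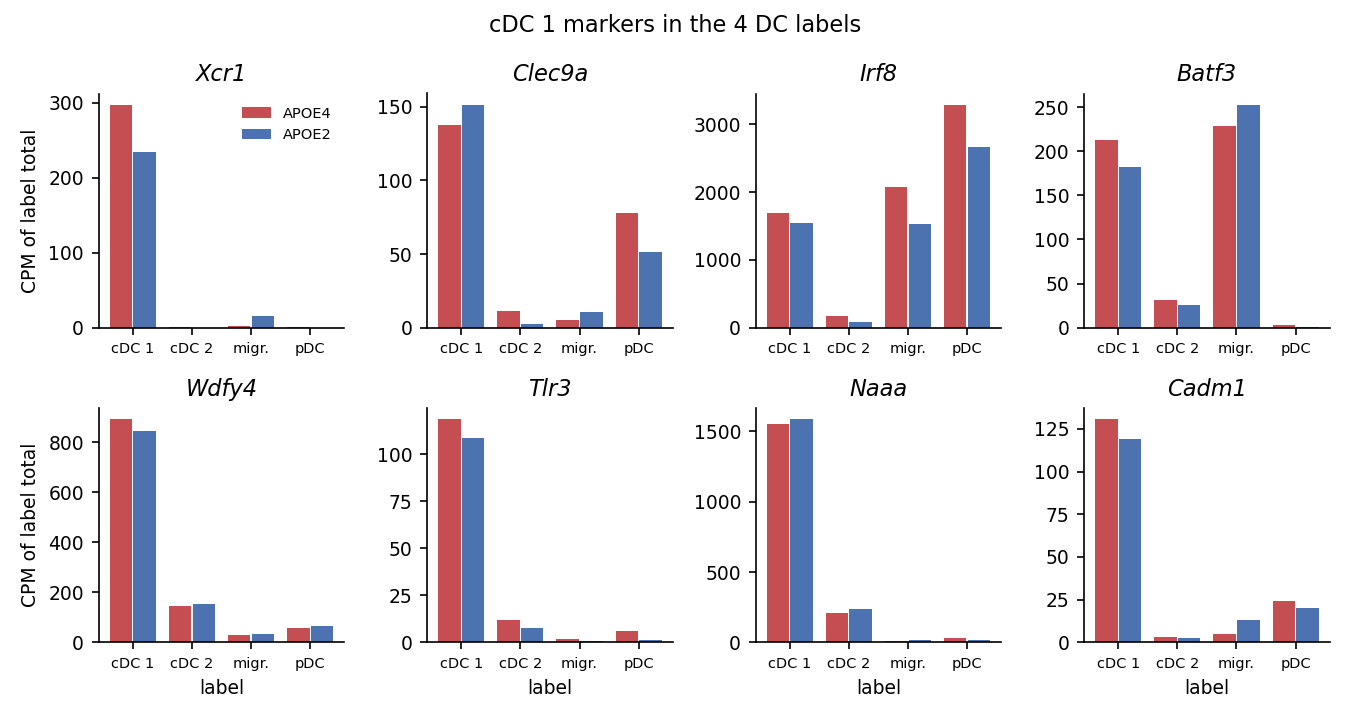
Level of 8 cDC 1 markers in the 4 dendritic labels, in CPM of the label total (y axes start at 0), APOE4 left of APOE2, with 1 pooled library per bar and so no error bar. Xcr1, Tlr3, Wdfy4, Naaa and Cadm1 are highest in cDC 1, whereas Irf8 is highest in pDCs and Batf3 is about as high in migratory DCs.

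Cells with a UMI of both Xcr1 and Clec9a made up 50 of 91 cDC 1 cells in APOE4 (54.9%, exact 95% interval 44.2 to 65.4) and 80 of 144 in APOE2 (55.6%, 47.1 to 63.8). Outside the label there were 15 such cells in APOE4 and 24 in APOE2. Most lay in the label Monocytic DCs, with 13 of its 120 cells in APOE4 (10.8%, 5.90 to 17.8) and 20 of its 233 cells in APOE2 (8.58%, 5.32 to 12.95). Those cells are deep, with medians of 19871 UMIs in APOE4 and 18123 UMIs in APOE2. In the label NK cluster 2, which should lack both genes, 0 of 631 APOE4 cells (exact upper bound 0.583%) and 0 of 214 APOE2 cells (1.71%) had both, at median depths of 3817 and 4609 UMIs.

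Markers of other cells were low but present, and several differed between the libraries. The 10 macrophage markers summed to 63.6 CPM in APOE4 and 160 CPM in APOE2, against 15668 and 17298 CPM in macrophage cluster 1, with 2 markers at 0 in APOE4 and none at 0 in APOE2. Fcgr1 was the only one of them higher in APOE4, and it made up 37.0 CPM of the APOE4 sum and 13.8 CPM of the APOE2 sum. C1qb, the largest part of the APOE2 sum, was at 5.16 CPM in APOE4 and 46.7 CPM in APOE2. The cDC2 markers summed to 239 CPM in APOE4 and 415 CPM in APOE2, with 1 of 9 at 0 in each. T cell markers summed to 14.6 CPM in APOE4 and 45.1 CPM in APOE2. The monocyte markers summed to 1697 CPM in APOE4 and 597 CPM in APOE2, of which Plac8 made up 1545 and 475 CPM, with 2 of 7 at 0 in APOE4 and 1 in APOE2. Markers of neutrophils, NK, B and mast cells, stroma and red cells summed to at most 25.8 CPM per class in APOE4 and 39.0 CPM in APOE2. How far other cells or free RNA enter the differences below was not tested. The main expression values were recomputed without cells carrying macrophage markers, and without those carrying lymphocyte, neutrophil, mast cell or stroma markers. Of these 2 settings, the cDC 1 share was recomputed with the second only. No setting left out cells for cDC2 or monocyte markers.

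The cDC 1 label held a smaller share of the APOE4 library. It was 1.69% of annotated cells in APOE4 (exact 95% interval 1.36 to 2.07) and 3.09% in APOE2 (2.61 to 3.62), a ratio of 0.547 [0.422, 0.710]. Intervals in brackets and for shares cover counting error only, since cells of 1 pool are not replicates and no p-value can be given. Of the myeloid labels, cDC 1 cells were 2.81% in APOE4 and 3.99% in APOE2, a ratio of 0.703 [0.543, 0.910]. Of the 4 dendritic labels they were 12.4% in APOE4 and 16.9% in APOE2, a ratio of 0.737 [0.578, 0.939], where pDCs went the other way with 28.0% in APOE4 and 13.03% in APOE2. Of cDC 1 and cDC 2 cells together they were 23.9% in APOE4 and 25.9% in APOE2, a ratio of 0.921 [0.733, 1.16], so within the conventional cells a difference was not detectable at this number of cells. Counting the cells outside the label with Xcr1 and Clec9a as well gave 0.547 [0.430, 0.695] of annotated cells. A fixed number of cells was sorted per mouse, so these are shares and not numbers per tumour.

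**Figure D2:**
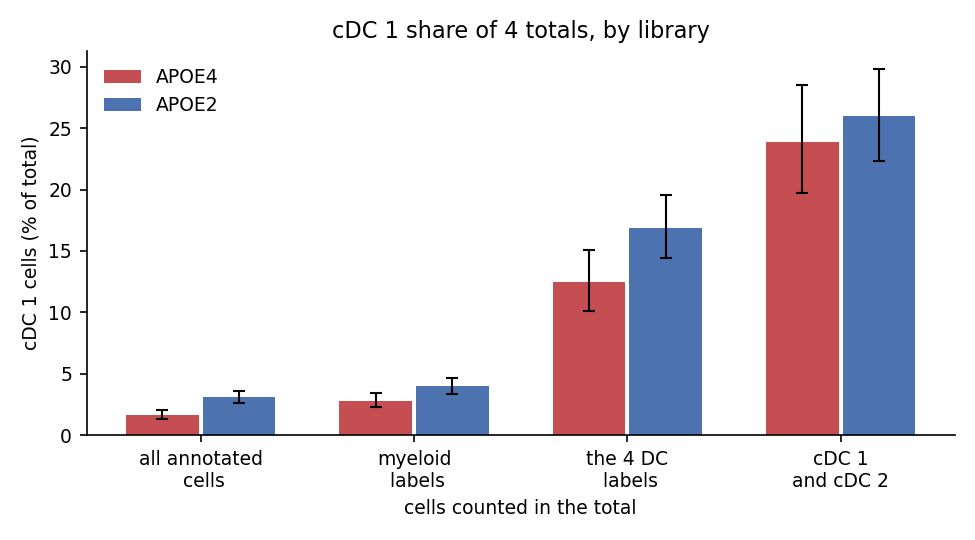
Share of cDC 1 cells in percent (bars from 0) with exact 95% binomial intervals, for 4 totals on the x axis, APOE4 left of APOE2, 1 pooled library each. The share is lower in APOE4 for each total, from 1.69% against 3.09% of annotated cells to 23.9% against 25.9% of cDC 1 and cDC 2 cells, where the intervals overlap widely.

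Cycling did not differ detectably. Cells with at least 3 UMIs of 10 genes of the S and G2/M phases were 13 of 91 in APOE4 (14.3%, 7.83 to 23.2) and 22 of 144 in APOE2 (15.3%, 9.83 to 22.2), with 7 and 17 cells within 1 UMI of that limit. These shares were larger than in the cDC 2 label, where they were 3.45% in APOE4 and 4.38% in APOE2. At 3000 UMIs per cell they were 2.20% in APOE4 (0.267 to 7.71) and 2.84% in APOE2 (0.778 to 7.10) cDC 1 cells. In cDC 2 they were then 0.690% in APOE4 (0.0836 to 2.47) and 0.499% in APOE2 (0.0605 to 1.79), so the intervals of the labels overlap. Whether free RNA adds to these shares was not tested. The 19 measured proliferation genes had a median log2 ratio of 0.06 between the libraries, and of −0.19 without these cycling cells.

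Expression was then compared between the libraries within the label, by the ratio of CPM (APOE4 over APOE2) with its exact binomial interval. Of 5737 genes with at least 50 UMIs in both libraries together, 338 (5.89%) were 1.5-fold or more higher in APOE4 and 285 (4.97%) were 1.5-fold or more lower. The median log2 ratio over all of them was 0.05, and 56.4% had a ratio above 1. These shares are the background against which the counts of each gene group are read, and 24 groups were examined.

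Interferon-stimulated genes had the highest median ratio of the groups. Type I interferons act through a receptor that activates STAT proteins, and their targets include antiviral and regulatory proteins. All 26 measured members of the type I interferon list were 1.5-fold or more higher in APOE4 and none was lower, beside the 5.89% of all genes, with a median log2 ratio of 1.46. The remaining 11 members found in the count tables had under 50 UMIs. In a single cell, the list made up a median of 26.9 per 10000 UMIs in APOE4 (lowest 7.0, highest 399.6) and 12.7 per 10000 UMIs in APOE2 (lowest 0.00, highest 165). Of the 91 APOE4 cells, 81 lay above the APOE2 median, yet the ranges overlapped widely.

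Promoters of a few of these genes are shown because a known interferon element can be read in them. The interferon-stimulated response element binds the transcription factor complex of this pathway, and its core was searched as GAAANNGAA on both strands in the 250 bases before each start (RefSeq, GRCm38.p6). Matches that overlap one another are joined. It was found in 10 of 19 type I members and 7 of 11 interferon gamma members with a promoter in the table, and in 8.18% of all 27025 genes there. Capitals mark the matches in these windows, written 5′ to 3′ in the gene's direction.
Isg15, chr4:156200856-156200916, minus strand: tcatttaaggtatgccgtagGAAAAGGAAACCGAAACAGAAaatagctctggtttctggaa
Rsad2, chr12:26456543-26456591, minus strand: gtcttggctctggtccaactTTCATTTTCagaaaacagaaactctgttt
Cxcl10, chr5:92349074-92349122, minus strand: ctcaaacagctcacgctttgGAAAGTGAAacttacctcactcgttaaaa
Cxcl9, chr5:92328226-92328274, minus strand: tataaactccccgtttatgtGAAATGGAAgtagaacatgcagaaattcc
Isg15 holds 3 overlapping matches, the other three hold 1 each, and the one of Rsad2 lies on the opposite strand. A match is a run of letters, not a shown binding site.

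Among the effectors, Isg15, a ubiquitin-like modifier, had 776 UMIs (667 CPM) in APOE4 and 305 UMIs (156 CPM) in APOE2, a ratio of 4.26 [3.73, 4.88]. Rsad2, the antiviral enzyme viperin, had 100 UMIs in APOE4 and 18 UMIs in APOE2, a ratio of 9.31 [5.6, 16.3]. Ifit2, which binds viral RNA, stood at a ratio of 6.60 [4.45, 10.1] and its relative Ifit3 at 5.72 [3.28, 10.5]. Reads of the Ifit, Ly6, Bcl2a1, Oas and H2 families can be split or lost between near-identical copies, so single values there are uncertain. Those effectors with few UMIs were carried by few cells: Rsad2 was seen in 20 of 91 APOE4 cells and 8 of 144 APOE2 cells.

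Regulators of the response were higher too. Irf7 (chr7:141262706-141266481, mm10), the transcription factor that amplifies interferon production, had 696 UMIs (598 CPM) in APOE4 and 381 UMIs (195 CPM) in APOE2, a ratio of 3.06 [2.70, 3.48]. Stat2, which carries the receptor's signal to the nucleus, was at 134 CPM in APOE4 and 72.8 CPM in APOE2, a ratio of 1.84 [1.46, 2.33]. The feedback inhibitor Usp18 had a ratio of 3.52 [2.56, 4.89], and Oasl1, known in mice to hold back Irf7 translation, 3.53 [2.37, 5.34]. The receptor chains were not: Ifnar1 had a ratio of 1.09 [0.849, 1.39] and Ifnar2 0.929 [0.658, 1.30]. Sensors of viral nucleic acid that are also targets were higher, with Ifih1 at 3.32 [2.33, 4.78] and Zbp1 at 2.46 [2.0, 3.03], and Tlr3 stood at 1.09 [0.874, 1.36] and the adaptor Myd88 at 0.939 [0.720, 1.22].

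Tlr11 and Tlr12, which sense profilin of parasites in mice, had ratios of 1.63 [1.0, 2.65] and 2.19 [1.23, 3.94], and Tlr12 turned to a log2 ratio of −0.11 when cells were thinned. Of 15 measured genes of pattern recognition, 6 were 1.5-fold or more higher and none was as much lower.

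Few cells carried a large part of these UMIs. The 5 APOE4 cells with the highest list level held 30.4% of the list's UMIs in that library, against 17.9% for the 5 highest APOE2 cells. The same number is a larger part of 91 APOE4 cells than of 144 APOE2 cells, so these percentages are not on equal terms. Without the 5 highest cells of each library the median log2 ratio was 1.12, with 24 of 26 members still 1.5-fold or more higher. Leaving out 5 APOE4 and 13 APOE2 cells with at least 3 macrophage marker UMIs gave 1.03, again with 24 of 26. The log2 ratios without those cells were 1.45 for Isg15, 1.97 for Rsad2, 1.59 for Ifit2, 1.25 for Ifit3, 0.99 for Usp18, 1.08 for Ifih1 and 0.75 for Oasl1, against 2.09, 3.22, 2.72, 2.52, 1.82, 1.73 and 1.82 with them. Among the macrophage markers, Fcgr1 was itself higher in APOE4, with 43 UMIs against 27 UMIs in APOE2. Cells may be left out for that gene alone, so this setting cannot show how much macrophage material adds to the ratios. Keeping only the 72 APOE4 and 127 APOE2 cells with a UMI of Xcr1 or Clec9a gave 1.28, with 24 of 26.

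**Figure D3:**
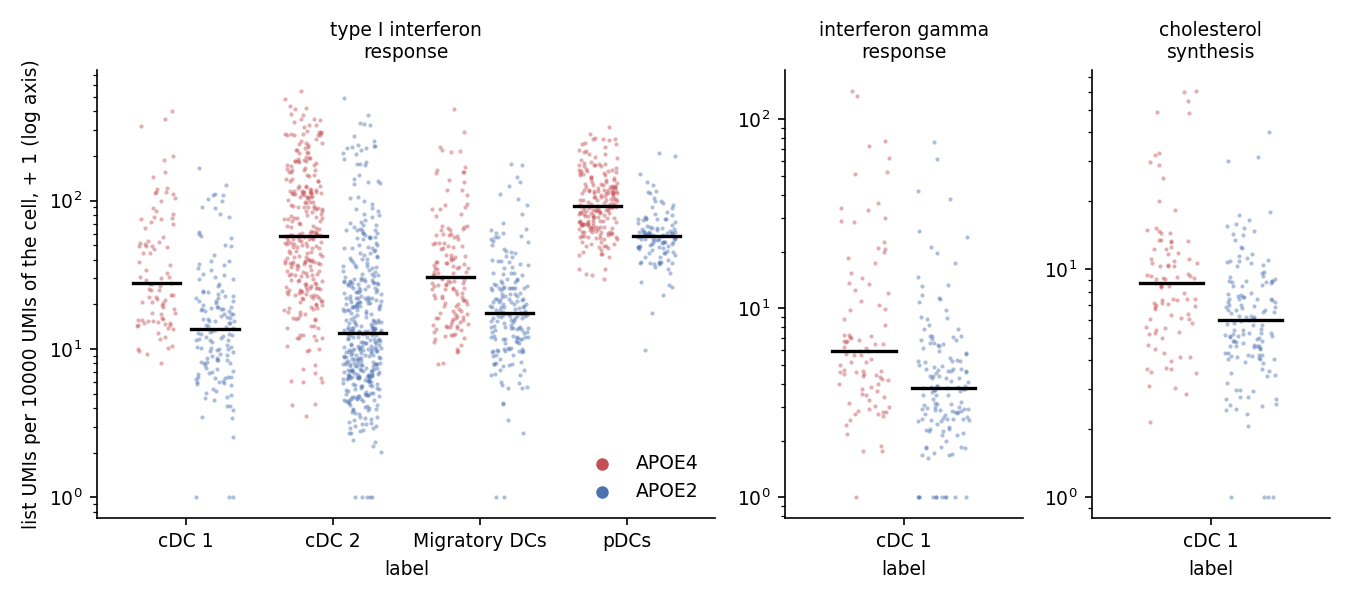
Summed UMIs of 3 gene lists per 10000 UMIs of each cell, plus 1, on a log axis, for the type I interferon list in the 4 dendritic labels and for the interferon gamma and cholesterol synthesis lists in cDC 1. Points are cells, lines medians over cells, APOE4 left of APOE2, 1 pooled library each. The cDC 1 medians before adding 1 are 26.9 against 12.7, 4.94 against 2.78 and 7.72 against 5.01, and in every panel the cells of the libraries overlap.

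The list was also higher in the other dendritic labels. Over the 25 members measured in all 4 labels, the median log2 ratio was 1.38 in cDC 1, 1.62 in cDC 2, 0.83 in migratory DCs and 1.99 in pDCs. In cDC 1 25 of them were 1.5-fold or more higher, in cDC 2 25, in migratory DCs 20 and in pDCs 24. Of all genes, 8.61% were that far higher and 5.88% that far lower in cDC 2, 7.18% and 5.5% in migratory DCs, and 7.54% and 3.72% in pDCs. Differences between these labels were not tested. Per cell, APOE4 cDC 1 cells had the lowest median of the APOE4 dendritic labels, 26.9 per 10000 UMIs, next to 29.4 in migratory DCs, 56.7 in cDC 2 and 91.5 in pDCs.

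Targets of interferon gamma, a product of NK and T cells, included the chemokines. Of 15 measured members of that list, 9 were 1.5-fold or more higher and none was lower, with a median log2 ratio of 0.99. The 5 cells with the highest list level, of 91 in APOE4 and 144 in APOE2, held 35.6% and 31.9% of its UMIs. Without them the median was 1.05, and without the cells with macrophage markers it was 0.67, each with 10 of 15 members 1.5-fold or more higher. Cxcl9 (chr5:92321347-92328079, mm10) encodes a ligand of the chemokine receptor CXCR3 of T cells. It had 357 UMIs (307 CPM) in APOE4 and 159 UMIs (81.5 CPM) in APOE2, a ratio of 3.76 [3.11, 4.56]. Of these, 1 cell held 76 UMIs in APOE4 and 1 cell 58 UMIs in APOE2. Thinned to 3000 UMIs, 17.6% of APOE4 and 5.67% of APOE2 cells had a UMI of Cxcl9, against 27.5% and 11.1% unthinned. In NK cluster 2, at the depths given above, the thinned shares were 1.08% in APOE4 and 0 of 175 cells in APOE2 (exact upper bound 2.09%). Cxcl10, a second CXCR3 ligand, had 220 UMIs in APOE4 and 44 UMIs in APOE2, a ratio of 8.38 [6.04, 11.9], in 17 of 91 APOE4 cells and 7 of 144 APOE2 cells.

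Transcription factors and inhibitors of that pathway also differed. Irf1 was at 93.7 CPM in APOE4 and 29.2 CPM in APOE2, a ratio of 3.20 [2.31, 4.5], and the inhibitor Socs1 had a ratio of 3.72 [2.23, 6.37]. Among the GTPases that attack pathogen vacuoles, Iigp1 had a ratio of 4.5 [2.49, 8.57], Irgm1 2.07 [1.45, 2.96] and Igtp 1.31 [0.824, 2.07]. Iigp1 was seen in 10 APOE4 and 5 APOE2 cells, and 14 of its 43 APOE4 UMIs lay in 1 cell. The checkpoint ligand Cd274 did not differ beyond counting error, at 39.5 CPM in APOE4 and 38.5 CPM in APOE2. The receptor chain Ifngr1 was lower, with 223 CPM in APOE4 and 368 CPM in APOE2, a ratio of 0.605 [0.523, 0.699], while its partner Ifngr2 stood at 1.04 [0.822, 1.31].

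Antigen presentation was set apart by class. Of 22 measured MHC class I genes 21 had a ratio above 1, but only 4 reached 1.5-fold, namely H2-Q6, H2-Q7, Tapbpl and H2-T22, and the median log2 ratio was 0.24. B2m, the shared light chain, had a ratio of 1.27 [1.19, 1.37], and Tap1, part of the peptide transporter, 1.14 [1.02, 1.29]. Class II went the other way by a small amount. Of 15 measured genes 13 had a ratio below 1 and none passed 1.5-fold, with a median log2 ratio of −0.21. The invariant chain Cd74 was at 17022 CPM in APOE4 and 20931 CPM in APOE2, a ratio of 0.813 [0.80, 0.827]. Its regulator Ciita, however, stood at 1.49 [1.17, 1.89]. For the same 22 class I genes the median log2 ratio was 0.86 in cDC 2, with 17 of them 1.5-fold or more higher. It was 0.39 in migratory DCs and 0.35 in pDCs, with 4 of them in each, and differences between labels were not tested.

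In a single cell the class II list made up a median of 456 per 10000 UMIs in APOE4 and 538 per 10000 UMIs in APOE2, and 24 of 91 APOE4 cells lay above the APOE2 median. Of 23 genes of cross-presentation and uptake of dead cells, none was 1.5-fold or more higher and 2 were as much lower. Wdfy4 had a ratio of 1.06 [0.975, 1.14], and Clec9a 0.909 [0.745, 1.11]. Timd4, a receptor for phosphatidylserine on dying cells, was one of the 2. It had 5 UMIs in APOE4, in 2 cells, and 89 UMIs in APOE2, in 23 cells, and was thus 10.6-fold lower [4.39, 33.5]. The second was the integrin Itgav, at 0.658 [0.419, 1.01]. At 3000 UMIs per cell 1.10% of APOE4 and 8.51% of APOE2 cells had a UMI of Timd4, against 2.20% and 15.97% unthinned, and no thinned NK cluster 2 cell did (exact upper bounds 0.790% in APOE4 and 2.09% in APOE2).

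Among costimulatory genes, Cd40, through which CD4+ T cells license dendritic cells, was at 49.8 CPM in APOE4 and 17.95 CPM in APOE2, a ratio of 2.78 [1.79, 4.35]. Lgals9, which encodes galectin 9, had a ratio of 2.28 [1.68, 3.09]. The ligands of CD28 differed less, with Cd86 at 1.23 [1.06, 1.43] and Cd80 at 0.686 [0.452, 1.02]. Cd40 and Lgals9 were the 2 genes 1.5-fold or more higher among 15 measured, and none was as much lower.

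Genes of cholesterol synthesis were higher as well. Cholesterol is built from acetyl-CoA through mevalonate, and the genes for it are known targets of the transcription factor Srebf2, which is active when sterols in the membrane are low. Of 13 measured genes 9 were 1.5-fold or more higher in APOE4 and none was lower, beside 5.89% of all genes, with a median log2 ratio of 0.96. Another 13 members had under 50 UMIs. Per cell the list made up a median of 7.72 per 10000 UMIs in APOE4 (lowest 1.14, highest 59.8) and 5.01 per 10000 UMIs in APOE2 (lowest 0.00, highest 39.0), and 68 of 91 APOE4 cells lay above the APOE2 median.

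Along the pathway, Hmgcs1, the entry enzyme, had 75 UMIs in APOE4 and 51 UMIs in APOE2, a ratio of 2.46 [1.70, 3.59]. Idi1 and Fdps, which make the isoprenoid units, stood at 2.44 [1.63, 3.66] and 2.61 [2.12, 3.22]. Fdps was the most abundant member, with 237 UMIs (204 CPM) in APOE4 and 152 UMIs (78.0 CPM) in APOE2. Cyp51, which demethylates lanosterol, had a ratio of 2.87 [2.0, 4.17]. Srebf2 itself stood at 1.28 [1.01, 1.63], and Insig1, which restrains it, at 1.72 [1.09, 2.69].

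Without the 5 cells of each library with the most of this list, the median log2 ratio was 0.95 with 7 of 13 genes 1.5-fold or more higher, and without the cells with macrophage markers it was 1.09 with 8. Over the 5 genes with at least 200 UMIs it was smaller, 0.56, with 2 of them 1.5-fold or more higher. Over the 11 members measured in all 4 dendritic labels the median was 0.96 in cDC 1, 0.46 in cDC 2, 0.34 in migratory DCs and 0.29 in pDCs, and 8, 5, 3 and 0 of them were 1.5-fold or more higher. This difference between labels was not tested. The sterol regulatory element, searched as TCACNCCAC in the same promoters, was found in 1 of 9 cholesterol genes with a promoter in the table and in 1.22% of all genes. That one, printed for the entry enzyme, is:
Hmgcs1, chr13:119690194-119690242, plus strand: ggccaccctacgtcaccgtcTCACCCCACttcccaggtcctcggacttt
Genes without the letters may hold the element in another form or outside this window.

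The other lipid groups were mixed. Of 11 measured genes of cholesterol efflux and the LXR receptors, 1 was 1.5-fold or more higher and 3 as much lower, with a median log2 ratio of −0.20, which turned to 0.09 when cells were thinned and to 0.08 over the 4 genes with at least 200 UMIs. Abcg1, a cholesterol exporter, was at 33.5 CPM in APOE4 and 58.0 CPM in APOE2, a ratio of 0.578 [0.391, 0.839], and the LXR target Arl4c stood at 0.512 [0.383, 0.677]. Npc2, a sterol carrier of the lysosome, had a ratio of 1.44 [1.33, 1.56]. Fatty acid synthesis had a median log2 ratio of −0.14 over 10 genes, with the desaturase Scd1 at 0.392 [0.243, 0.610] and Fasn at 0.893 [0.618, 1.28]. Of 6 measured APOE receptors 1 was 1.5-fold or more higher and 1 as much lower. The lower one, Sdc4, a heparan sulfate proteoglycan, had 2 UMIs in APOE4 and 50 UMIs in APOE2, a ratio of 0.0670 [0.00790, 0.255]. Its log2 ratio was −3.90, and −1.24 when cells were thinned.

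**Figure D4:**
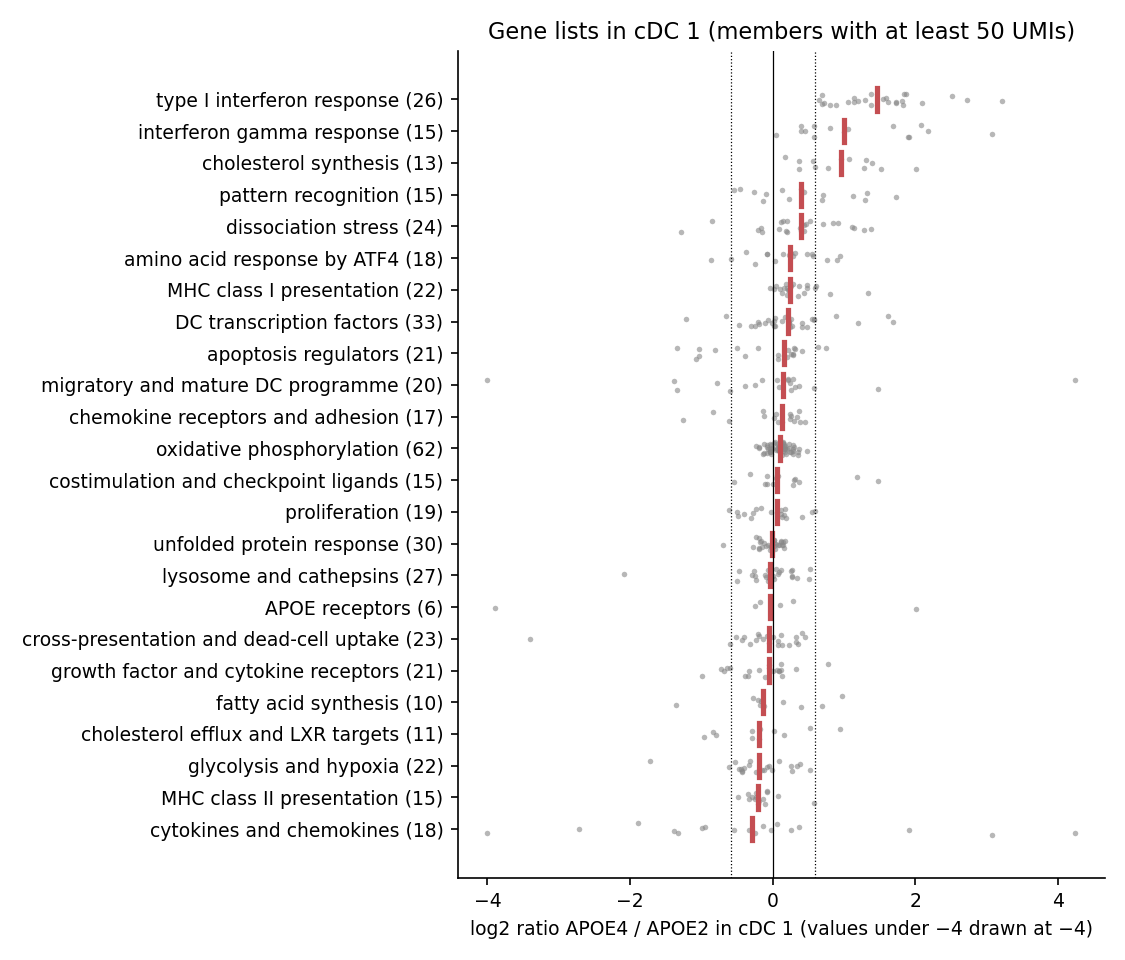
Log2 ratio APOE4 over APOE2 in cDC 1 for the measured members of 24 gene lists, with their number in brackets. Points are genes, red lines medians, dotted lines 1.5-fold, and 1 pooled library per genotype gives no error across libraries. The medians run from 1.46 for the type I interferon list to −0.30 for cytokines and chemokines, and most lists lie near the 0.05 of all genes.

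The cytokines and chemokines split. Of 18 measured, 3 were 1.5-fold or more higher and 7 as much lower, beside 5.89% and 4.97% of all genes. The higher ones were Cxcl9, Cxcl10 and Ccl5, which draws T cells. Ccl5 had 79 UMIs in APOE4 and 7 UMIs in APOE2, but 74 of the APOE4 UMIs lay in 1 cell, and 6 of 91 APOE4 and 7 of 144 APOE2 cells had any. Its log2 ratio was 4.24, and 0.49 without the cell with most of its UMIs in each library. Il18, which acts with IL-12 on NK cells, was at 28.4 CPM in APOE4 and 71.3 CPM in APOE2, a ratio of 0.398 [0.264, 0.585]. Cxcl2, which draws neutrophils, had 17 UMIs in APOE4 and 187 UMIs in APOE2, a ratio of 0.152 [0.0869, 0.251]. Without the cells with macrophage markers the log2 ratio of Cxcl2 was −1.26, against −2.71 with them. Il1b and Ccl4, the most abundant of the group, had ratios of 1.04 [0.984, 1.10] and 0.987 [0.902, 1.08].

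Part of the lower values came from few APOE2 cells. Ccl17, a ligand of CCR4 that marks mature dendritic cells, had 2 UMIs in 1 APOE4 cell and 346 UMIs in 13 APOE2 cells, 1 of which held 101 UMIs. At 3000 UMIs per cell 0 of 91 APOE4 cells (exact upper bound 3.97%) and 7.09% of APOE2 cells had a UMI of Ccl17, against 1.10% and 9.03% unthinned. In NK cluster 2 the thinned shares were 0.430% in APOE4 and 0 of 175 cells in APOE2. Ccl22, its partner ligand, had a ratio of 0.383 [0.235, 0.601], and Il12b, a subunit of IL-12, 0.503 [0.279, 0.863]. Without the cells with macrophage markers both turned, to log2 ratios of 0.37 and 0.25, so 13 APOE2 and 5 APOE4 cells decide their direction. Cd207, the lectin langerin, had 12 UMIs in 1 APOE4 cell and 112 UMIs in 7 APOE2 cells.

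The migratory and mature programme had a median log2 ratio of 0.15 over 20 genes, with 2 of them 1.5-fold or more higher and 5 as much lower, and the median turned to −0.13 when cells were thinned. Ccr7, the receptor that leads dendritic cells to lymph nodes, had a ratio of 1.18 [0.870, 1.59], a log2 ratio of 0.24. It turned to −1.93 without possible doublets, the cells with at least 2 UMIs of lymphocyte, neutrophil, mast cell or stroma markers, and was 1.44 when cells were thinned, so no direction is given. Of 17 measured chemokine receptors and adhesion genes none was 1.5-fold or more higher and 3 were as much lower. Of 21 growth factor and cytokine receptors 1 was higher and 5 were lower by 1.5-fold, the higher one being Il10ra, the receptor of IL-10, at 1.71 [1.29, 2.26]. Among the lower chemokine receptors were Cxcr3 at 0.559 [0.357, 0.853] and Ccr2 at 0.656 [0.497, 0.860].

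Of 21 measured regulators of apoptosis 2 were 1.5-fold or more higher and 5 as much lower, with a median log2 ratio of 0.16. A ratio above 1 was seen for 13 of them, near the 56.4% of all genes. Bcl2a1a, Bcl2a1b and Bcl2a1d, near-identical copies that encode an inhibitor of apoptosis, had ratios of 0.396 [0.315, 0.494], 0.489 [0.407, 0.585] and 0.474 [0.394, 0.568]. Bcl2a1a was seen in 35 of 91 APOE4 cells and 85 of 144 APOE2 cells. Bcl2l11, which promotes apoptosis, was lower too, at 38.7 CPM in APOE4 and 79.5 CPM in APOE2, a ratio of 0.487 [0.341, 0.682]. Its log2 ratio was −1.04, and −0.53 without possible doublets. The fifth was the survival gene Bcl2, with 16 UMIs in APOE4 and 47 UMIs in APOE2, a ratio of 0.570 [0.302, 1.02]. Bid, which promotes apoptosis, had a ratio of 1.68 [1.02, 2.76], and the survival gene Mcl1 stood at 1.15 [1.05, 1.27].

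The 12 genes furthest higher and the 12 furthest lower by the bound nearer to 1 were drawn from 5357 genes. Of the higher ones, Cxcl9, Irf7, Usp18, Iigp1 and Oasl1 are on the interferon lists. Pml, the scaffold of nuclear bodies, had a ratio of 3.70 [2.5, 5.59] and Parp14 3.30 [2.44, 4.51]. Plac8 on chromosome 5 (chr5:100553725-100572245, mm10) had 1798 UMIs (1545 CPM) in APOE4 and 927 UMIs (475 CPM) in APOE2, a ratio of 3.25 [3.0, 3.52], in 87 of 91 and 104 of 144 cells. Ly6a, the surface protein Sca-1, had a ratio of 3.0 [2.63, 3.43], the phosphatase Dusp2 3.56 [2.63, 4.87] and the hormone Sct 4.65 [2.81, 7.95]. The log2 ratio of Sct was 2.22, and 0.85 without the cells with macrophage markers. The heat shock gene Hspb1 had 53 UMIs in APOE4 and 0 in APOE2, at least 29.6-fold higher against a floor of 3 counts, but 50 of them lay in 1 cell and 2 cells held them all. Over all annotated cells, Plac8 was at 2602 CPM in APOE4 and 709 CPM in APOE2, Ly6a at 1450 and 430 CPM and Parp14 at 259 and 92.7 CPM. Also higher there were Irf7 at 528 and 149 CPM, Cxcl9 at 346 and 89.7 CPM and Usp18 at 113 and 32.7 CPM. So were Pml at 64.2 and 22.9 CPM and Iigp1 at 98.6 and 24.9 CPM. The same held for Oasl1 at 77.2 and 21.4 CPM and Sct at 7.52 and 1.16 CPM. These differences were thus not particular to cDC 1. Dusp2 differed less there, at 213 and 133 CPM, and Hspb1 went the other way, at 3.58 and 6.47 CPM.

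Of the lower genes besides Ccl17, Timd4, Cd207 and Bcl2a1a, the one with most UMIs was Rgs1, a regulator of G protein signalling (chr1:144242296-144249242). It had 257 UMIs (221 CPM) in APOE4 and 1059 UMIs (543 CPM) in APOE2, a ratio of 0.407 [0.353, 0.466], in 32 of 91 and 87 of 144 cells. Of these, 1 cell held 96 UMIs in APOE4 and 1 cell 93 UMIs in APOE2. Odc1, the first enzyme of polyamine synthesis, stood at 0.431 [0.348, 0.532]. Adam23 was 6.64-fold lower [3.23, 15.9], Ear2 4.62-fold [2.21, 11.2], the small GTPase Rit1 4.43-fold [2.01, 11.6], the sialyltransferase St6gal1 3.30-fold [1.89, 6.16] and Wdfy1 3.10-fold [2.03, 4.91]. Over all annotated cells, Ear2 was also lower, at 13.5 CPM in APOE4 and 61.8 CPM in APOE2. So were Ccl17 at 11.8 and 96.0 CPM and Cd207 at 3.05 and 16.1 CPM. Adam23, at 6.19 and 18.7 CPM, St6gal1, at 11.9 and 30.6 CPM, and Wdfy1, at 27.1 and 49.9 CPM, were lower there too. Bcl2a1a, at 76.6 and 122 CPM, and Odc1, at 186 and 232 CPM, were lower by less. Rgs1, at 660 and 812 CPM, Timd4, at 5.58 and 6.80 CPM, and Rit1, at 25.7 and 28.2 CPM, differed less there. Gm26740, an antisense gene (chr10:22187013-22302835), had 0 UMIs in APOE4 and 125 UMIs in APOE2, at least 24.9-fold lower. It had 0 UMIs in every APOE4 label and UMIs in all 26 APOE2 labels, and whether reads were counted by strand is not given in the sources used here.

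**Figure D5:**
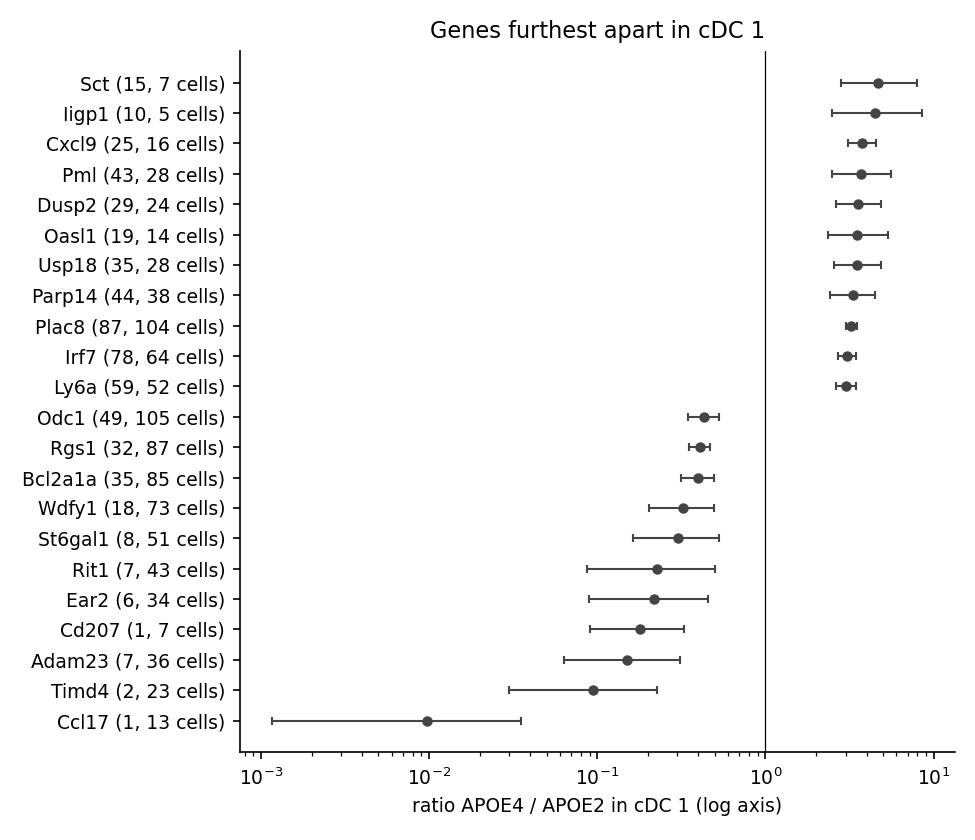
Ratio APOE4 over APOE2 in cDC 1 with its exact 95% binomial interval, on a log axis, for the genes furthest apart that had UMIs in both libraries. The numbers of cells with a UMI are given as APOE4, then APOE2, of 91 and 144 cells. Plac8 and Irf7 rest on many cells, whereas Ccl17 and Cd207 rest on 13 APOE2 cells or fewer.

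Genes known to respond to tissue dissociation also differed between the libraries. Of 24 measured, 7 were 1.5-fold or more higher and 2 as much lower, with a median log2 ratio of 0.39. The list made up a median of 140 per 10000 UMIs in APOE4 cells and 106 per 10000 UMIs in APOE2 cells. The chaperones Hspa8, at 1.62 [1.56, 1.69], and Hsp90aa1, at 1.80 [1.62, 1.99], were among the higher ones, and Egr1 was lower at 0.552 [0.350, 0.849], a log2 ratio of −0.86 that was −0.017 without the cells with macrophage markers. Without the 5 highest cells of each library 4 were higher and 4 lower. Hspa1b turned to a log2 ratio of −0.80 without its highest cell in each library. The part of sample handling in the other differences was not tested, and handling and genotype cannot be told apart with 1 library each.

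Of 18 genes of the amino acid response by ATF4, 3 were 1.5-fold or more higher and 2 as much lower, with a median log2 ratio of 0.24. Mthfd2, a folate enzyme of mitochondria, had a ratio of 1.86 [1.49, 2.33], and the transporter Slc1a5 0.548 [0.366, 0.806].

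Several programmes held few genes past 1.5-fold. The 62 genes of oxidative phosphorylation had a median log2 ratio of 0.09 with none past 1.5-fold in either direction. The 30 genes of the unfolded protein response were at −0.01 with 1 past 1.5-fold lower, and the 27 of lysosome and cathepsins at −0.03 with 1. That one was the protease Ctsd, with 8 UMIs in APOE4 and 57 UMIs in APOE2, a ratio of 0.235 [0.0969, 0.495]. Its log2 ratio was −2.09, and −0.75 when cells were thinned. Glycolysis and hypoxia stood at −0.20, with 16 of 22 genes below 1 and 2 of them 1.5-fold or more lower. Of 33 transcription factors of dendritic cells 4 were 1.5-fold or more higher, among them Stat2, Irf1 and Irf7, which are known interferon targets. Klf4, at 0.637 [0.496, 0.813], and Stat5a, at 0.430 [0.249, 0.709], were as much lower, but with cells thinned none of the 33 was. Their log2 ratios were then −0.11 for Klf4 and 0.17 for Stat5a. Batf3 had a ratio of 1.17 [0.994, 1.38], Irf8 1.10 [1.04, 1.16] and the growth factor receptor Flt3 1.00 [0.865, 1.16].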

How the data were processed

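For each library the deposited count matrix gives unnormalized UMI counts of genes in barcodes, written by Cell Ranger 3.0.1 per the file headers. The submitters' processing notes name mm10 and Seurat 3.0.2. The authors' deposited annotation gives each cell's label, library, UMI count and percent of mitochondrial UMIs; these UMI counts differ from the matrix totals in 2652 APOE4 and 2515 APOE2 cells, by at most 0.757% and 0.890%. The sources used here do not say how cells were named or whether doublets were removed, and no doublet caller was run. Of 27998 genes, 27645 were found in GENCODE M21 (mm10), the source of gene positions.

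Counts were summed per label and library (Python 3.11.15, scipy 1.17.1, pandas 2.3.3) and scaled to CPM of the label total. Ratios carry exact conditional binomial 95% intervals, shares Clopper-Pearson intervals, and ratios of shares the interval of a log ratio. With 1 library per genotype no test was run. Folds against 0 use a floor of 3 counts per label sum. Genes with at least 50 UMIs over both sums were compared, and 1.5-fold set the counts. Named genes were the 12 highest and 12 lowest by the bound nearer 1 with at least 10% of the CPM of the gene's highest label, leaving out genes of ribosomal proteins, mitochondria, haemoglobin, antigen receptor segments and those linked to sex, plus list and marker members (676 of 681 list symbols were found). The members and lists were chosen with earlier results of these data known. Scripts were tested on simulated counts. Alternatives include TMM factors (edgeR 4.0.16) and size factors (DESeq2 1.42.0), thinning to 3000 UMIs per cell, and leaving out cells. Some genes are not reported here, though they stay in the counts.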

Additional observations from a re-analysis of the deposited data

Results flagged for a closer look

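Of 483 genes compared with the other dendritic labels, 4 past 1.5-fold in cDC 1 cells went the opposite way in another of them. The counting intervals of both ratios lay on opposite sides of 1. The difference between labels was not tested, since each label has 1 library per genotype. Timd4 had a ratio of 2.30 [1.66, 3.22] in cDC 2, on 100 UMIs in APOE4 and 61 UMIs in APOE2, against 0.0941 [0.0298, 0.228] in cDC 1. Rgs1 stood at 1.63 [1.25, 2.16] in pDCs and 0.407 [0.353, 0.466] in cDC 1. Ccl5 stood at 0.582 [0.440, 0.770] in pDCs and 18.9 [8.76, 48.6] in cDC 1, where 74 of 79 APOE4 UMIs lay in 1 cell. Slc1a5, a transporter of neutral amino acids, stood at 1.66 [1.05, 2.65] in migratory DCs and 0.548 [0.366, 0.806] in cDC 1.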

How the results depend on the processing

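No paired analysis was possible because each genotype has 1 library, and for the same reason no replicate could be left out. The limit on low counts moved the number of genes 1.5-fold or more apart most. With at least 20 UMIs 689 were higher in APOE4 and 711 lower, of 7963 genes. With at least 200 UMIs 78 were higher and 47 lower, of 2214. With no limit 1686 were higher and 1391 lower, of 10709, and thinning to 3000 UMIs per cell gave 164 and 96 of 2008. TMM factors moved the split of 338 higher and 285 lower genes to 282 and 343.

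The median log2 ratio of the type I interferon list was 1.03 without the cells with macrophage marker UMIs and 1.12 without its 5 highest cells per library, both chosen after seeing the data. The ratio of cDC 1 shares was 0.737 of the 4 dendritic labels and 0.731 of these without possible doublets. Thinning turned the log2 ratios of Tlr12 to −0.11, Relb to −0.13, Stat5a to 0.17, Cox6c to −0.069 and Atp5c1 to −0.0065. Hspa1b turned to −0.77 without possible doublets, to −2.01 without cycling cells and to −0.80 without its highest cell. Jun turned to −0.070 without cycling cells. Il12b turned to 0.25 and Ccl22 to 0.37 without the cells with macrophage markers. The cause was not tested. These were the 9 genes, of 489 checked, that changed sign in a setting among those whose counting interval in the main comparison excluded a ratio of 1. With the other genes counted too, 143 changed sign in some setting. 9 of 24 list medians did so, among them those near 0 in the main comparison and, further off, cholesterol efflux and the migratory programme. For Hspb1 and Gm26740, at 0 in a library, the mean of per-cell CPM gave no ratio.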
